A study of Arabidopsis thaliana with 20 samples.

Results

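In Arabidopsis root tips, 55 of 22746 probe sets had a clearly lower signal under low oxygen in the ribosome-bound RNA of the pWOL line. They had no comparable fall in the ribosome-bound RNA of the p35S and pSCR lines. They were chosen by measured values. The hypoxia mean had to lie at least 1.5 log2 units below the air mean in pWOL (a difference of at most -1.5), with both hypoxia arrays below both air arrays. The same difference had to be no lower than -0.5 in p35S and in pSCR, with no upper limit. In p35S it was at or above 0.5 in 8 of the 55, against 11.4% of all probe sets. In pSCR it was so in 4, against 13.7% of all. Of the 55 probe sets, 36 carried 1 annotated gene, 1 carried several and 18 had none listed in the annotation used here. The pWOL, p35S and pSCR differences and levels of these probe sets are therefore descriptions with no test. The tests below are of differences in the pSHR line and total RNA, whose arrays the choice did not use. Their standard errors also draw on the arrays of the choice, because the spread of each probe set was estimated from all arrays.

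All samples came from 7-day-old seedlings in the Col-0 background that carried a His6FLAG-tagged ribosomal protein, RPL18B, under 1 of 4 promoters (p35S, pSCR, pSHR or pWOL). The hypoxia groups were kept for 2 h in chambers flushed with argon, and the control groups stayed in air under the same dim light. The last 1 cm of the root was cut, and tagged ribosomes were pulled down from pWOL, pSHR, pSCR and p35S tips with their RNA. Total RNA was taken from the lysates of the p35S line, so the total and p35S arrays share tissue. Each of the 5 RNA populations had 2 arrays in hypoxia and 2 in air, 20 arrays in 10 groups, and this small number limits the precision. The labels do not say whether replicates were grown as separate cultures, and the p-values cover only how far these arrays vary, which may be technical.

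Translating ribosome affinity purification recovers messenger RNA in the cells where a tagged ribosomal protein is made, so each promoter samples the translated RNA of its own cells. WOL encodes a cytokinin receptor active in the vascular cylinder, SHR encodes a transcription factor made in the vascular cylinder, and SCR encodes a partner of SHR that acts in the endodermis. The p35S promoter is active in most cells. When oxygen runs short, plant cells load fermentation and stress messages onto ribosomes, and many other messages leave the ribosomes to be held in the cytoplasm. In these bulk samples, fewer contributing cells of a type and less RNA per cell cannot be told apart.

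The labels place pWOL in the vascular tissue, which few measured marker genes bear on. Of 4 vascular genes with a named probe set, none was called higher in pWOL than in p35S polysomes in air. LHW, a regulator of vascular cell division, was lower in pWOL (-1.26 ± 0.30 log2, SE, limma adjusted p = 0.0162), as was PHV, a vascular patterning factor (-0.78 ± 0.24, limma adjusted p = 0.0492), and AT2G28510 and OPS differed by -0.81 and -0.28 without passing the test. PHV was not called under any other setting tried for this comparison (limma adjusted p = 0.0520 to 0.260), and LHW was not called without pWOL air replicate 1 or without p35S air replicate 1 (limma adjusted p = 0.115 and 0.113). Set beside the pSCR line in air, with no test, PHV averaged 9.39 in pWOL and 9.05 in pSCR, and AT2G28510 7.80 in pWOL and 6.74 in pSCR. LHW averaged 7.37 in pWOL and 7.55 in pSCR, and OPS 5.47 in pWOL and 5.78 in pSCR. The cortex marker AT1G09750 (3.39, limma adjusted p = 2.3e-04) and the ground tissue regulator JKD (2.59, limma adjusted p = 0.0037) were higher in pWOL than in p35S. The other cortex genes, AT1G62500 (-0.058) and AT3G21670 (0.50), and the endodermal gene GSO1 (0.42) were not called (limma adjusted p = 0.920, 0.289 and 0.506). The background for this comparison was 6.64% of probe sets called higher and 5.84% called lower. Beside pSCR in air, with no test, AT1G09750 averaged 10.57 in pWOL and 9.42 in pSCR, and JKD 9.48 in pWOL and 8.80 in pSCR. GSO1 averaged 9.20 in pWOL and 11.10 in pSCR, and AT3G21670 7.19 in pWOL and 8.62 in pSCR. AT1G62500 averaged 4.97 in pWOL and 4.92 in pSCR. No xylem, pericycle or root cap gene of the lists had a named probe set, so the line is called pWOL here and given no cell type. The root hair expansins EXPA7 and EXPA18 differed by 1.29 and 1.04 log2 in pWOL minus p35S in air, and neither was called (limma adjusted p = 0.119 and 0.117). With no test, EXPA7 averaged 8.11 in pWOL air and 8.37 in pSCR air, and EXPA18 9.11 and 8.38. Beside the results below, EXPA7 and EXPA18 were lower in hypoxia in pWOL (-2.51 and -2.10 log2, limma adjusted p = 0.0080 and 0.0061). They were also called lower in pSHR and in total RNA. The other 6 genes of that epidermal list were not measured by name, and the part of these cells in the result was not tested.

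Some array quality values differed between the pWOL groups. Array medians lay between 6.41 and 6.55 log2 units over all arrays, and at 6.464 and 6.461 in pWOL hypoxia, against 6.530 and 6.514 in pWOL air. With each array centred on its median the choice gave 41 probe sets, all among the 55. Replicates correlated across probe sets at r = 0.965 to 0.984. The 25S ribosomal RNA control read 14.30 and 14.29 in pWOL hypoxia arrays, against 13.54 and 13.24 in pWOL air arrays. The lowest reading, 10.18, was in pSCR hypoxia replicate 2, and the other 19 arrays had 12.69 to 14.34. The GAPDH control's 3 prime probe set exceeded its 5 prime one by 4.39 and 4.45 in pWOL hypoxia arrays, against 4.40 and 5.07 in pWOL air arrays. The part of these values in the results was not tested. In pSHR air, replicate 2 stood above replicate 1 in 44 of the 55 probe sets, with a median gap of 0.66 log2, against 52.6% of all probe sets. Replicate 2 was also above replicate 1 in 44 of the 55 in pSCR hypoxia, against 53.4% of all. In p35S hypoxia it was above in 43, against 48.7%, and in pWOL in 29 in air and 28 in hypoxia. Without pSCR hypoxia replicate 2, 40 of the 55 still met the choice, and without p35S hypoxia replicate 2, 46.

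The pWOL differences of the 55 probe sets reached down to -2.44 log2, with a median of -1.65, against -0.0050 over all probe sets. Both hypoxia arrays lie below both air arrays by the choice, as in 27% of all probe sets. The highest hypoxia array lay below the lowest air array by 0.34 to 1.88 log2 units, with a median of 1.36, and by at least 1 unit in 49 of the 55. In limma 47 of the 55 were called lower in pWOL, where 4.34% of all probe sets were, and nothing is read from this count because the choice used the same arrays. In all, 340 probe sets met the pWOL condition. Of these, 197 were below -0.5 in p35S and 247 in pSCR, 159 of them in both, which leaves the 55 (16.2%) and 285 others. In p35S the arrays of the 55 did not overlap in 4 that were lower and 8 that were higher, where 24.1% and 21.5% of all probe sets were. In pSCR they did not overlap in 11 that were lower and 7 that were higher, where 25.1% and 23.1% were, and nothing is read from these counts either.

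**Figure D1:**
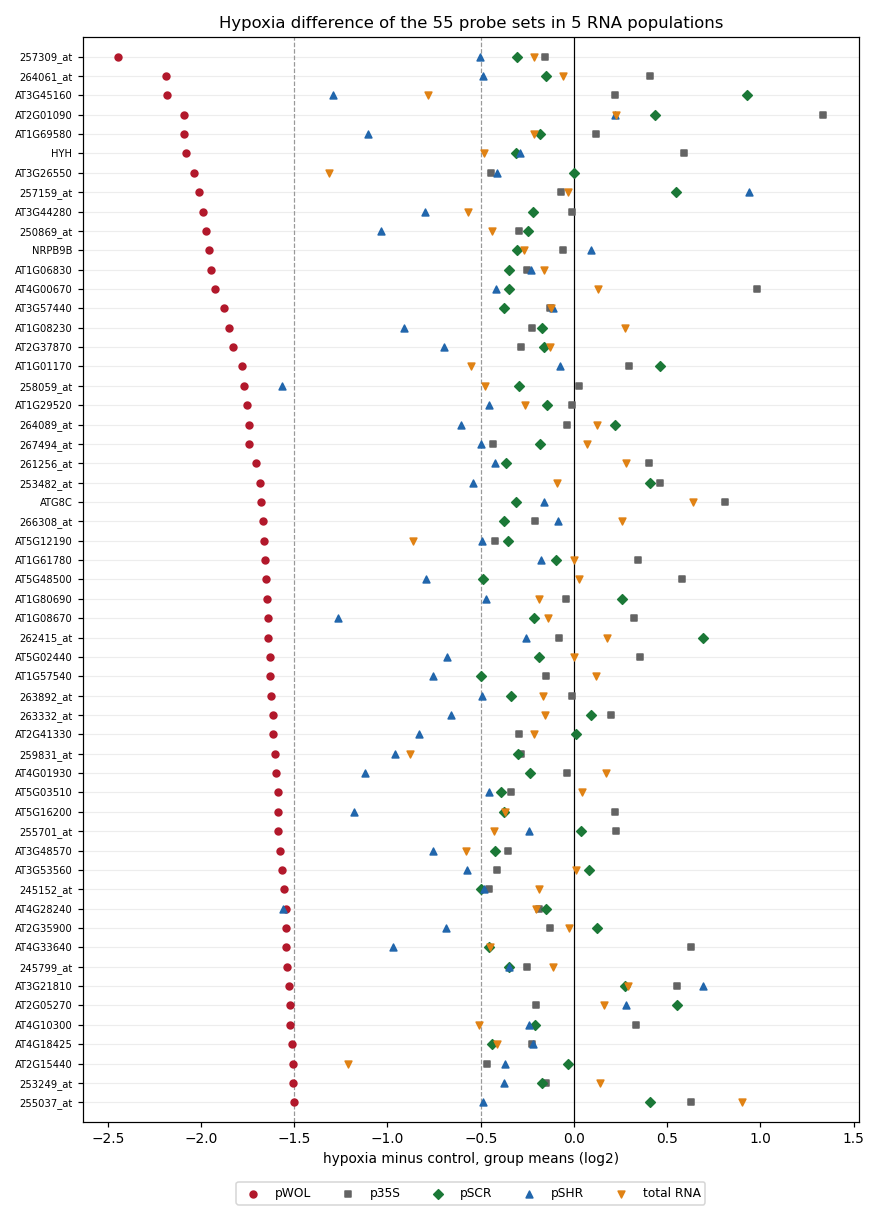
Hypoxia minus air difference of group means (log2, horizontal axis) for each of the 55 probe sets (rows, ordered by the pWOL difference) in pWOL, p35S, pSCR, pSHR and total RNA. Dashed lines mark -1.5 and -0.5; pWOL points lie left of -1.5, p35S and pSCR points right of -0.5, and pSHR points reach -1.57.

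Just inside the pWOL threshold were AT2G15440 (-1.51) and AT4G18425 (-1.51), and just outside it were AT4G30660 (-1.49) and AT4G37090 (-1.48). At the p35S threshold AT2G15440 (-0.47) and AT3G26550 (-0.44) lay inside, and GSTU23 (-0.50) and AT1G01640 (-0.53) outside. At the pSCR threshold AT1G57540 (-0.50) and AT5G48500 (-0.49) lay inside, and AT3G59130 (-0.50) and AT1G48690 (-0.53) outside. The edge of the group is therefore not a gap in the data. Single pWOL arrays also decide part of the choice. Without pWOL hypoxia replicate 1, 41 of the 55 still met it, and without pWOL hypoxia replicate 2, 42. Of the 55, 14 no longer met it without pWOL air replicate 1 and 8 others without pWOL air replicate 2, and 20 met it with each of the 4 pWOL arrays left out in turn. Probe set 245799_at read 4.40 and 4.49 in hypoxia, against 4.84 and 7.13 in air, and was lost without air replicate 2. AT2G05270 read 4.62 and 4.64 in hypoxia, against 6.71 and 5.60 in air, and was lost without air replicate 1. ATG8C, AT4G28240, AT3G21810, AT2G15440, AT4G18425 and AT2G41330 were lost without air replicate 1 as well, and AT3G48570, AT4G01930 and AT5G16200 without replicate 2.

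The genes have varied roles, and the grouping by role used here was made after the values were seen and carries no test. Regulators of transcription and RNA come first. HYH, a bZIP transcription factor that acts with HY5 in light signalling, read 5.99 and 5.33 log2 in pWOL hypoxia arrays, against 7.75 and 7.73 in pWOL air arrays. Its p35S arrays read 5.40 and 7.06 in hypoxia, against 5.39 and 5.88 in air. Its pSCR arrays read 5.71 and 5.83 in hypoxia, against 6.09 and 6.08 in air. The pWOL air arrays of HYH were the highest of the 20, and its pWOL hypoxia arrays lay in and just under the low end of the other populations. AT1G69580, a MYB-related transcription factor, read 5.16 and 5.58 in pWOL hypoxia, against 7.83 and 7.08 in pWOL air. In p35S it read 7.10 and 6.97 in hypoxia, against 6.82 and 7.00 in air, and in pSCR 5.61 and 5.80 in hypoxia, against 5.94 and 5.82 in air. Its p35S groups overlapped.

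NRPB9B, a subunit of RNA polymerase II, read 6.26 and 5.88 in pWOL hypoxia, against 8.20 and 7.86 in pWOL air. Its p35S arrays read 8.03 and 8.29 in hypoxia, against 8.25 and 8.19 in air. The pWOL groups stood apart, and the p35S groups overlapped. AT5G12190, an RNA-binding protein with an RRM domain, read 5.31 and 5.48 in pWOL hypoxia, against 7.02 and 7.10 in pWOL air. The CCCH zinc finger gene AT3G21810 read 7.78 and 6.96 in pWOL hypoxia, against 9.19 and 8.61 in pWOL air. In p35S its hypoxia arrays, 6.11 and 6.86, lay above the air arrays, 5.88 and 5.98. AT3G21810 therefore had opposite directions in these 2 lines, which the choice allowed.

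Genes of membranes, transport and protein handling formed another set. AT1G08230, the GABA transporter GAT1, read 5.69 and 5.37 in pWOL hypoxia, against 7.36 and 7.40 in pWOL air. Its p35S arrays read 6.34 and 5.54 in hypoxia, against 6.14 and 6.19 in air, so those groups overlapped. AT4G00670, a remorin family gene (plasma membrane proteins), read 7.09 and 7.16 in pWOL hypoxia, against 9.04 and 9.05 in pWOL air. In p35S its hypoxia arrays read 8.66 and 10.08, against 7.96 and 8.82 in air, with a difference of 0.98 and overlapping arrays. AT3G48570, a Sec61 gamma subunit of the protein-conducting channel of the endoplasmic reticulum, read 7.58 and 6.84 in pWOL hypoxia, against 8.54 and 9.03 in pWOL air. ATG8C, a ubiquitin-like protein that builds the autophagosome, read 6.24 and 6.06 in pWOL hypoxia, against 8.34 and 7.32 in pWOL air. In p35S its arrays read 7.67 and 9.15 in hypoxia, against 7.53 and 7.68 in air. Within the pWOL line ATG8C was lower in both hypoxia arrays, while its p35S difference was 0.81 with overlapping arrays. AT1G08670, of the ENTH/VHS family of vesicle adaptors, read 6.46 and 6.76 in pWOL hypoxia, against 8.20 and 8.31 in pWOL air.

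Redox and energy genes were fewer. AT2G01090, the hinge protein of mitochondrial complex III in the respiratory chain, read 5.27 and 4.89 in pWOL hypoxia, against 6.91 and 7.43 in pWOL air. In p35S it read 6.03 and 8.26 in hypoxia, against 5.89 and 5.72 in air, a difference of 1.34 that came mainly from 1 array. Its pSCR arrays read 5.58 and 7.08 in hypoxia, against 6.31 and 5.48 in air. The pWOL hypoxia arrays of AT2G01090 were the lowest of all 20. The glutaredoxin AT1G06830, a thiol oxidoreductase, read 5.62 and 6.33 in pWOL hypoxia, against 8.26 and 7.58 in pWOL air. A member of the same protein family, AT2G41330, named after its values were seen, read 5.16 and 5.27 in pWOL hypoxia, against 7.34 and 6.31 in pWOL air.

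The remaining named genes include cell wall, stress and unassigned proteins. AT3G26550, a gene for a protein with cysteine- and histidine-rich C1 domains, read 7.92 and 7.01 in pWOL hypoxia, against 9.35 and 9.66 in pWOL air. A related C1 domain gene, AT4G01930, read 5.38 and 5.38 in pWOL hypoxia, against 6.63 and 7.33 in pWOL air. For both genes the pWOL air arrays exceeded every pWOL hypoxia array by over 1 log2 unit. AT4G28240, of the wound-responsive protein family to which the low-oxygen gene AT4G10270 also belongs, read 8.81 and 8.37 in pWOL hypoxia, against 10.19 and 10.08 in pWOL air. AT2G37870, a lipid-transfer-like protein, read 7.39 and 7.31 in pWOL hypoxia, against 9.02 and 9.34 in pWOL air. AT2G15440, of a family linked to cell wall polysaccharide synthesis, read 6.77 and 6.79 in pWOL hypoxia, against 8.41 and 8.17 in pWOL air. All of these pWOL groups were separate. The pWOL differences of AT3G45160, AT3G44280, AT3G57440, AT1G01170 and AT5G16200, whose roles are not described here, were -2.18, -1.99, -1.88, -1.78 and -1.59.

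**Figure D2:**
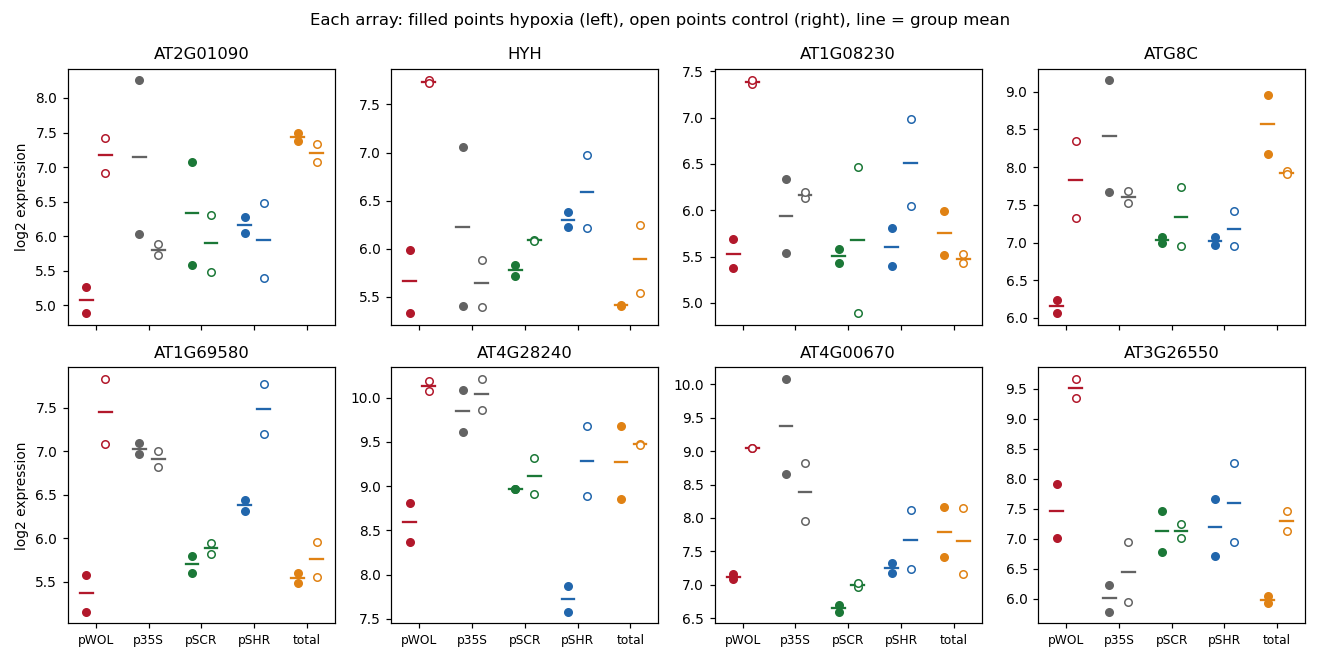
Log2 expression on each array for 8 of the genes; within each RNA population hypoxia arrays are filled points on the left, air arrays open points on the right, and lines are group means. In each panel the 2 pWOL hypoxia points lie below both pWOL air points, and the pSHR groups of AT1G69580, AT4G28240 and AT1G08230 separate as well.

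A low hypoxia minus air difference in pWOL can come with a high air level or with a low hypoxia level, and both occurred. The median level of the 55 probe sets was 6.36 log2 in pWOL hypoxia, against 8.03 in pWOL air. In p35S it was 7.58 in hypoxia, against 7.53 in air, and in pSCR 6.50 in hypoxia, against 6.61 in air. In total RNA it was 7.22 in hypoxia, against 7.50 in air. In pSHR the median was 6.91 and 7.00 on the hypoxia arrays, against 7.17 and 7.64 on the air arrays. The pWOL air mean was the highest of the 5 air means in 33 of the 55 probe sets, against 21.6% of all probe sets, and the pSCR air mean was the lowest in 31 of the 55, also against 21.6%. The choice uses these very levels, so the counts are descriptions.

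Set among all 10 group means, pWOL air was the highest in 28 of the 55, against 13.1% of all probe sets. The lowest was pWOL hypoxia in 25 of the 55, against 9.77% of all, and 7 were in both counts. That leaves 21 with the high air level alone, 18 with the low hypoxia level alone and 9 with neither. HYH, AT1G08230, AT3G57440, AT3G26550 and AT4G28240 were highest in pWOL air alone. AT2G01090, AT1G69580, NRPB9B and ATG8C were lowest in pWOL hypoxia alone. In the first kind the pWOL air mean lay a median of 1.49 log2 above the mean of the 4 other populations in air, and in hypoxia it lay 0.055 above theirs. In the other kind the median of the pWOL hypoxia mean minus the mean of the 4 others was -1.26, and pWOL air lay 0.34 above theirs. The 55 thus include probe sets ranked highest in pWOL air and probe sets ranked lowest in pWOL hypoxia. These are ranks against the other groups, not changes, and the choice used the same levels, so they are descriptions with no test.

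**Figure D3:**
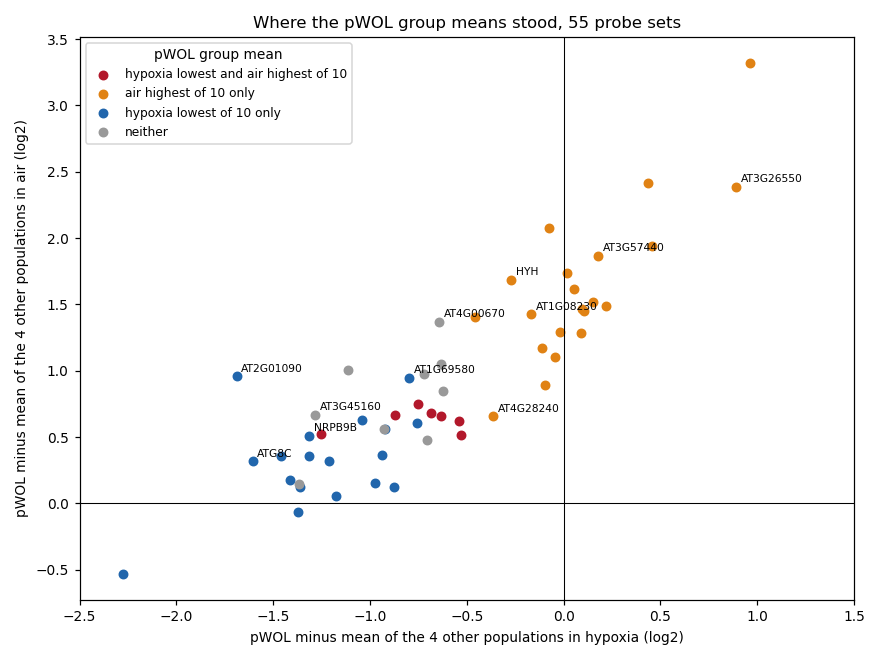
Position of the pWOL group mean against the mean of the 4 other populations, in hypoxia (horizontal axis) and in air (vertical axis), both in log2 units, for the 55 probe sets coloured by where pWOL ranks among the 10 group means. Points run from the upper right, where pWOL air is high, to the lower left, where pWOL hypoxia is low; 53 lie above 0 in air and 43 below 0 in hypoxia.

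The pSHR line, whose promoter is also labelled vascular, gave the first test of differences measured on arrays outside the choice. The standard errors of this test are not independent of the choice, because the spread of each probe set was estimated from all arrays. These include the pWOL, p35S and pSCR arrays. The tests below that use total RNA share that spread, and its effect on the number of calls was not tested. In pSHR, 3 of the 55 probe sets were called lower by limma, where 1.88% of all probe sets were, and 0 were called higher, where 2.68% were. At an unadjusted p below 0.05, 15 were lower, where 8.79% of all were, and 0 were higher, where 8.2% were. The median pSHR difference was -0.49 log2, against -0.022 over all probe sets, and 50 of the 55 were below 0, against 53.2% of all. Hypoxia and air arrays did not overlap in 21 that were lower, where 23.2% of all were, and in 1 that was higher, where 19% were. Much of this rests on pSHR air replicate 2: the median was -0.18 without it and -0.88 without pSHR air replicate 1. The pSHR differences were thus mostly below 0, their size varied with 1 array, and few passed the test.

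AT4G28240 was the named gene with the strongest pSHR fall. It read 7.87 and 7.58 in pSHR hypoxia arrays, against 8.89 and 9.68 in pSHR air arrays, a difference of -1.56 ± 0.30 (SE, limma adjusted p = 0.0101), as large as its -1.54 in pWOL. Both pSHR hypoxia arrays were below every p35S, pSCR and total RNA array of this gene. AT1G69580 read 6.32 and 6.45 in pSHR hypoxia, against 7.20 and 7.77 in pSHR air (-1.11 ± 0.25, limma adjusted p = 0.0237). The third was probe set 258059_at, which has no gene listed and was named after its values were seen. It read 7.90 and 8.26 in pSHR hypoxia, against 9.69 and 9.59 in pSHR air (-1.57 ± 0.27, limma adjusted p = 0.0048), and 8.75 and 8.22 in pWOL hypoxia, against 10.14 and 10.37 in pWOL air. Its groups were separate by more than 1 log2 unit in both lines. Without pSHR air replicate 2, AT4G28240 and AT1G69580 had limma adjusted p of 0.109 and 0.215, and without pSHR hypoxia replicate 2 they had 0.103 and 0.109. Of the 3, only 258059_at was called in either case. Without pSHR hypoxia replicate 1, AT1G69580 had a limma adjusted p of 0.0725 and the other two were called. With the 4 pSHR arrays fitted alone, 0 of the 55 were called, but of all 22746 probe sets only 1 was called lower and 19 higher.

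Other genes had low pSHR differences that did not pass. AT3G45160 read 6.93 and 7.13 in pSHR hypoxia, against 7.91 and 8.74 in pSHR air (-1.29 ± 0.47, limma adjusted p = 0.161). AT5G16200 read 5.59 and 5.23 in pSHR hypoxia, against 6.31 and 6.87 in pSHR air (-1.18 ± 0.32, limma adjusted p = 0.0521). These groups did not overlap. AT1G08670 and AT4G01930 had -1.27 and -1.12 (limma adjusted p = 0.226 and 0.185). At the upper end, AT3G21810 read 7.15 and 8.34 in pSHR hypoxia, against 7.05 and 7.05 in pSHR air (0.69 ± 0.37, limma adjusted p = 0.391). AT2G05270 (0.28), AT2G01090 (0.22), NRPB9B (0.093) and AT1G01170 (-0.073) followed, and the smallest limma adjusted p among these 4 was 0.809. These 5 were the highest pSHR differences among the genes named, and none passed the test.

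Total RNA gave no call for any of the 55. By limma 0 were called lower, where 0.884% of all probe sets were, and 0 higher, where 2.04% were. At an unadjusted p below 0.05, 3 were lower, where 5.95% of all were, and 1 was higher, where 6.76% were. The median total RNA difference was -0.14 log2, against -0.030 over all probe sets, and 36 of the 55 were below 0, against 54.5% of all. Hypoxia and air arrays did not overlap in 17 that were lower, where 23.3% of all were, and in 3 that were higher, where 19.8% were. Total RNA shares its lysates with p35S, whose difference the choice bounded at -0.5, so total RNA is not fully independent of the choice. Its standard errors draw on the arrays of the choice as well.

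The lowest total RNA value belonged to AT3G26550. It read 5.93 and 6.04 in total RNA in hypoxia, against 7.46 and 7.13 in air (-1.31 ± 0.46, limma adjusted p = 0.201). AT2G15440 read 7.03 and 6.85 in hypoxia, against 7.85 and 8.45 in air (-1.21 ± 0.33, limma adjusted p = 0.0807). These groups did not overlap, yet neither gene passed the test. With the 4 total RNA arrays fitted alone, AT3G26550 passed (limma adjusted p = 0.0417). Among the members with 1 gene, AT5G12190 (-0.86), AT3G45160 (-0.78) and AT3G48570 (-0.58) came next. The highest of these genes were ATG8C, which read 8.17 and 8.96 in total RNA in hypoxia, against 7.94 and 7.91 in air (0.64 ± 0.44, limma adjusted p = 0.650), and then AT3G21810 (0.29), AT1G08230 (0.28), AT2G01090 (0.23) and AT4G01930 (0.17). AT4G28240, called in pSHR, read 8.86 and 9.68 in total RNA in hypoxia, against 9.48 and 9.47 in air, and those groups overlapped. AT1G69580 read 5.49 and 5.60 in hypoxia, against 5.96 and 5.56 in air, again with overlap.

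Whether the hypoxia difference was lower in pSHR than in total RNA was tested as the difference of the differences. By limma 0 of the 55 were called either way, where 0.0044% of all probe sets were called lower and 0% higher. At an unadjusted p below 0.05, 4 were lower, where 2.39% of all were, and 0 were higher, where 1.89% were. The median difference was -0.43 log2, and it was -0.016 without pSHR air replicate 2. AT4G28240 had -1.36 ± 0.43 and AT1G69580 -0.89 ± 0.36 (SE), and neither passed limma's test. A lower value in pSHR than in total RNA was thus not established for these genes.

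The 55 probe sets differed by construction from the 285 others that met the pWOL condition: their medians in p35S and pSCR were -0.045 and -0.19 log2, against -0.82 and -1.15 for the 285. The 55 had medians of -0.49 in pSHR and -0.14 in total RNA, and the 285 had -1.12 and -0.73. In pSHR 3 of the 55 were called lower by limma, and 109 of the 285 (38.2%), where 1.88% of all probe sets were. In total RNA 0 of the 55 and 61 of the 285 (21.4%) were called lower, where 0.884% of all probe sets were. In pWOL the medians were -1.65 for the 55 and -1.82 for the 285. The difference between these 2 sets was not tested, because bounding p35S and pSCR also selects on measures related to pSHR and total RNA.

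**Figure D4:**
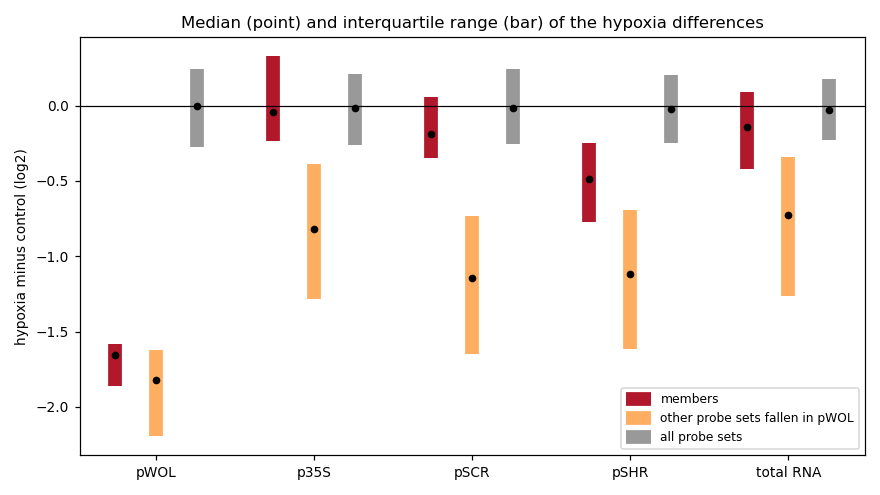
Median (point) and interquartile range (bar) of the hypoxia minus air differences (log2, vertical axis) in each RNA population for the 55 probe sets (red), the 285 other probe sets low in pWOL (orange) and all probe sets (grey). The red bars lie near 0 in p35S and total RNA and lower in pSHR, at a median of -0.49, while the orange bars are below 0 in every population.

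Among the 55, the pWOL differences were set against those in pSHR and in total RNA. Across probe sets, which are not independent and share arrays, Pearson's r was -0.039 between the pWOL and pSHR differences and 0.16 between pWOL and total RNA, and 0.24 between pSHR and total RNA (n = 55 probe sets). The narrow pWOL range set by the choice limits the first pair of values.

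Genes known to respond to low oxygen moved the other way. All 15 measured genes of the low-oxygen list were called higher by limma in pWOL, with a median of 4.37 log2, in pSHR with 4.27 and in total RNA with 4.83. Part of that list was named in literature on these very samples, and its direction is no independent evidence. RR16, a type-A response regulator of cytokinin signalling, was lower in pWOL (-1.04 ± 0.29 log2, limma adjusted p = 0.0412), and ARR15, of the same family, had 0.15 and was not called. The remaining list genes measured in pWOL, from the phloem, vascular, endodermis, cortex, photosynthesis and cell cycle lists, were not called. No gene of any list belongs to the 55.

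The 36 genes were spread over the genome. Chromosomes 1 to 5 held 10, 6, 8, 7 and 5 of them, among 3218, 1869, 2512, 1761 and 2864 measured genes. No 2 of the 36 lay within 10 genes of each other in the TAIR10.1 gene order. Of 30 measured immediate neighbours, 0 met the pWOL threshold. Few probe sets did so anywhere: 340 of 22746 met it without overlap. Of the neighbours 13 were below 0, against 50.6% of all probe sets, and their median pWOL difference was 0.044 log2. The other immediate neighbours were not measured by name.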

How the data were processed

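Affymetrix arrays of 20 root tip RNA samples were analysed as 10 groups of 2. The authors deposited log2 expression values per probe set, made with RMA and the affy package per the submitters' processing notes; no version is given in the sources used here. RMA compresses low values, and 2 rounds of amplification may distort levels. No scaling was added. The 64 control probe sets were left out. Of the others, 13513 had 1 gene in the platform annotation, 503 several and 8730 none listed; all 36 single genes of the group matched TAIR10.1, used for names and gene order only.

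A model of group means over all 20 arrays was fitted with limma 3.58.1 in R 4.3.3 (10 residual and 3.30 prior degrees of freedom), with Benjamini-Hochberg adjustment over 22746 probe sets and calls at an adjusted p below 0.05. Errors are standard errors of the model. The call was tested on simulated data. The members and lists were chosen with earlier results of these data known. Genes named were those called in the tests, the 12 lowest in pWOL, the 5 highest and 5 lowest in pSHR and in total RNA, genes of the 12 lists and those at the thresholds (26 in all); sharing a family name named none, since the annotation gives no family names. AT2G41330 and probe sets without 1 gene were chosen after their values were seen. Alternatives tried were the replicate number as a block, the lysate shared by p35S and total RNA as a random block, the compared arrays alone, no dimmest 25% of probe sets, median centring, quantile normalization, trended robust moderation and leaving out each array. Promoter motifs were not analysed here.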

Additional observations from a re-analysis of the deposited data

Results flagged for a closer look

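In 4 of the 55 probe sets both hypoxia arrays lay above both air arrays in pSHR or total RNA, opposite to pWOL. This was 1 of the 55 in pSHR, where 19% of all probe sets were so, and 3 in total RNA, where 19.8% were, so such cases were not frequent here. The pWOL side comes from the way the probe sets were chosen, and the difference between the populations was not tested. AT3G21810, the CCCH zinc finger gene, had a hypoxia minus air difference of 0.69 log2 in pSHR. In total RNA the differences were 0.64 for the autophagy gene ATG8C, 0.23 for the complex III gene AT2G01090 and 0.90 for probe set 255037_at, which has no gene listed. Probe set 255037_at read 7.37 and 6.97 in total RNA in hypoxia, against 6.21 and 6.32 in air. None of the 4 passed limma's test.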

How the results depend on the processing

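With the compared arrays alone, limma called 0 of the 55 lower in pSHR (3 as reported) and 1 lower in total RNA (0 as reported; AT3G26550, adjusted p = 0.0417). Over the whole array it then called 19 probe sets higher in pSHR (609 as reported), 1 lower (428 as reported) and 0 lower in pSHR minus total RNA (1 as reported). Leaving out 1 array at a time, the members called lower in pSHR numbered 1 to 5, all probe sets called higher in pSHR 252 to 855 and lower 130 to 684, and in total RNA 237 to 341 higher and 65 to 102 lower. The pSHR median of the members ran from -0.88 to -0.18 and the pSHR minus total RNA median from -0.72 to -0.016. Probe sets called in pSHR minus total RNA numbered 0 under the replicate block, trended moderation and without the dimmest 25%, and 0 to 1 when leaving out an array. In pWOL minus p35S in air, leaving out an array gave 660 to 940 called higher, 497 to 554 lower and 0 to 1 vascular genes called lower, against 1511, 1329 and 2; vascular genes called lower numbered 1 with the compared arrays alone, median centring, quantile normalization, the replicate block, trended moderation and without the dimmest 25%. The rule found 45 to 100 probe sets when an array was left out, 100 of them without pWOL air replicate 2 (47 shared with the 55). It found 41 with median centring (all shared), 61 with quantile normalization (50 shared) and 52 without the dimmest 25%. With the replicate block the 3 members called in pSHR stayed called and 0 were called in total RNA. Same-numbered arrays deviated together at r = 0.29 in pSHR and 0.25 in total RNA but at -0.16 in pWOL. Over 45 pairs of groups r ran from -0.33 to 0.29, and the pSHR value was the highest. Each pair of groups gives 1 value, so whether same-numbered arrays share more than a number cannot be decided here. AT5G16200 passed in pSHR with trended moderation (adjusted p = 0.0306) and without the dimmest 25% (0.0363), and AT1G57540 without pSHR hypoxia replicate 1 (0.0454). With 1 array left in a group, its spread is assumed to match the other groups. Of 235 recomputed counts and medians, 183 stayed within 1.5 times or 1 SD of the reported value and 52 moved further. Of 544 recomputed values of named genes, 490 kept their call or moved by less than their standard error, 43 moved further, 7 lost a call and 4 gained one. The causes were not tested.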
